A study of Mus musculus with 12 samples.

Results

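GTPases of immunity-associated proteins (GIMAPs) are small guanine nucleotide-binding proteins made mainly by lymphocytes, and in the mouse 8 of their genes lie side by side in 1 cluster. Each protein carries a GTPase domain, and several are anchored to membranes of the Golgi, the lysosome, the endoplasmic reticulum or mitochondria. The family is known for its part in T cell survival: mice that lack Gimap1 or Gimap5 lose mature T cells, and Gimap3, Gimap4 and Gimap5 have been described as binding members of the Bcl2 family, the gatekeepers of mitochondrial cell death. Such genes bear on a series that asks whether CD4 and CD8 T cells respond differently to linoleic acid, a polyunsaturated dietary fatty acid.

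The members were the probe sets whose 1 annotated symbol is Gimap1, Gimap3, Gimap4, Gimap5, Gimap6, Gimap7, Gimap8 or Gimap9, with the highest mean over the 12 arrays taken where a gene had several. All 8 were measured, among 22180 named genes, and all 8 were among the 14323 genes tested. Mouse splenocytes had spent 24 h in culture, and T cells were then sorted. The 4 groups, of 3 arrays each, were CD4 T cells from culture without linoleic acid (CD4 control), CD4 T cells from culture with 50 µM linoleic acid (CD4 linoleic acid), and CD8 T cells from the same kinds of culture (CD8 control and CD8 linoleic acid). The whole spleen cell mixture, not the T cells alone, had met the fatty acid. The labels used here state no strain, genotype or age, and leave it unsaid whether replicates come from different mice. The p-values then rest on the spread among these arrays alone, some of which may be technical.

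Values are log2 RMA intensities (RMA is a background correction, normalization and summary of the probes of a set), and the number of arrays limits their precision. The sort was visible in Cd4, at 10.77 to 11.19 in CD4 arrays and 5.12 to 6.48 in CD8 arrays, and in Cd8a, at 5.01 to 6.82 and 10.98 to 11.29. The replicate number marked a further difference. B cell markers (13 of 15 measured) averaged 6.01 to 6.52 in the 4 arrays numbered 1 and 7.28 to 7.95 in those numbered 2 and 3, and myeloid markers 4.96 to 5.12 against 5.37 to 5.77. Olfactory and vomeronasal receptor genes, a gauge of background, had a 95th percentile of 5.11, and the lowest value of any member on any array was 6.86. The myeloid values of arrays numbered 1 lay near that percentile. In arrays numbered 1, 2 and 3 the mean of these receptor genes was 2.99 to 3.15, 3.15 to 3.40 and 3.28 to 3.46. NK cell markers averaged 4.79 to 5.31, 5.46 to 5.63 and 5.58 to 5.81, and T cell markers 10.14 to 10.29, 9.95 to 10.13 and 9.86 to 10.08. In sorted populations, fewer cells of a type and less RNA per cell cannot be told apart.

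Along chromosome 6 the members stand in the order Gimap8, Gimap9, Gimap4, Gimap6, Gimap7, Gimap1, Gimap5 and Gimap3, with Gimap6 and Gimap3 on the minus strand and the others on the plus strand. The 250 bases before the RefSeq start (GRCm38.p6) are shown for the 4 members that passed the test between CD8 and CD4 T cells with no overlap between the arrays of each cell type. Gimap5 comes first because it alone of these was higher in CD8 T cells. Capitals mark matches, on either strand, to 1 of 6 short motifs that were searched. These were CGGAAG, a longer form of the ETS family core GGAA, the RUNX family core TGTGGT and the promoter box TATAAA. The others were the TCF/LEF family core CTTTGA, the RBPJ core TGGGAA and the nuclear receptor site AGGTCA. The matches do not overlap in these windows.
Gimap5, chr6:48745947-48746196, plus strand: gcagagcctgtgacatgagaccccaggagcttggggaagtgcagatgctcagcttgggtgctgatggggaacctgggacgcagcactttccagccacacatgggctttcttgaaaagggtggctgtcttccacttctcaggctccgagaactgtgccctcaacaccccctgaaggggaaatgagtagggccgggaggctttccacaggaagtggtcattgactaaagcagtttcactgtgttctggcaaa
Gimap6, chr6:48708245-48708494, minus strand: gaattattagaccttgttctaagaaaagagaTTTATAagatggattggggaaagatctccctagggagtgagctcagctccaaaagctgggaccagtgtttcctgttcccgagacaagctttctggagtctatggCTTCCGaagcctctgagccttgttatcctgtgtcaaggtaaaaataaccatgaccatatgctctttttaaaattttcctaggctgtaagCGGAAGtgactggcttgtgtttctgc
Gimap3, chr6:48770852-48771101, minus strand: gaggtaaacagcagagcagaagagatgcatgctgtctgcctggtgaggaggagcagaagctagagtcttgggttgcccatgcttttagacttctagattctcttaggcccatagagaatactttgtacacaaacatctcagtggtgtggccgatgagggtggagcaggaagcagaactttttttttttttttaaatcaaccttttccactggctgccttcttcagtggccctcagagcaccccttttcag
Gimap4, chr6:48684328-48684577, plus strand: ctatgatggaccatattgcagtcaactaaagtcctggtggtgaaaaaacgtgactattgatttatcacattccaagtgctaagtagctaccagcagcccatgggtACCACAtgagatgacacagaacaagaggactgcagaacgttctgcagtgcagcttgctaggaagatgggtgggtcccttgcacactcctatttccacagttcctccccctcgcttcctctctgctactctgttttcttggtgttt

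The ETS letters, of a family of factors active in lymphocytes, matched before Gimap6 at 26 to 21 and at 115 to 110 bases before the start, and 13.6% of 32851 RefSeq promoter windows of this length hold them. The promoter box matched 219 to 214 bases before Gimap6 (12.4% of windows). The RUNX letters, of the family that includes the CD8 lineage factor Runx3, matched 145 to 140 bases before Gimap4 (14.0% of windows). None of the 6 motifs, as spelled, matched before Gimap5 or Gimap3. Both windows hold the shorter letters GGAA, which were not searched. Over the 9 windows of the 8 members, 3 held the ETS letters, 3 the RUNX letters, 1 the promoter box and 0 the other motifs, which 13.8% (TCF/LEF), 21.6% (RBPJ) and 14.0% (nuclear receptor) of windows hold.

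CD8 T cells were compared with CD4 T cells, first over both cultures. Of the 8 members 4 were lower in CD8 T cells (Gimap3, Gimap4, Gimap6 and Gimap9), Gimap5 was higher, and 3 did not pass (Gimap1, Gimap7 and Gimap8). In limma with Benjamini-Hochberg adjustment 5 of 8 thus passed, where 4.71% of the 14323 genes did, 2.76% lower and 1.95% higher. The median member stood at -0.31 (log2, CD8 minus CD4), beside -0.01 over all genes tested. Apart from Gimap5 each member had a value below 0.

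Gimap5, an anchored GTPase whose loss in mice and rats depletes T cells, was read at 8.08, 7.84 and 8.06 in CD4 control arrays 1 to 3 and at 8.33, 8.18 and 8.01 in CD4 linoleic acid arrays. In CD8 T cells it stood at 8.45, 8.66 and 8.40 in control and 8.52, 8.49 and 8.36 in linoleic acid culture. Each CD8 array lay above each CD4 array, though by little between the highest CD4 array (8.33) and the lowest CD8 array (8.36). The difference over both cultures was 0.40 ± 0.09 (SE), 1.32-fold higher in CD8 T cells (limma adjusted p = 0.0165, 6 arrays per cell type). Gimap5 and Gimap3 are close relatives, and RefSeq lists Gimap5 as an older name of Gimap3. The probe sets were told apart by Entrez identifier, and how far their probes also bind the other transcript was not tested.

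Gimap6, which takes part in autophagy and binds the Atg8 protein Gabarapl2, was lower in CD8 T cells. It was read at 10.04, 10.01 and 10.37 in CD4 control arrays and at 10.13, 10.26 and 10.22 in those with linoleic acid, against 9.53, 9.75 and 9.75 in CD8 control and 9.80, 9.73 and 9.94 in CD8 linoleic acid arrays. The cell types did not overlap on any array. The difference was -0.42 ± 0.09, 1.34-fold lower (limma adjusted p = 0.0125).

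Gimap3, a membrane-anchored member known to influence which mitochondrial genomes leukocytes keep, was also lower. CD4 arrays held 10.81, 10.66 and 10.72 in control and 10.87, 10.88 and 10.79 in linoleic acid culture. CD8 arrays held 10.50, 10.52 and 10.49 in control and 10.52, 10.46 and 10.23 in linoleic acid culture, all below the CD4 arrays. The difference was -0.34 ± 0.08, 1.26-fold lower (limma adjusted p = 0.0212).

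Gimap4, which speeds T cell death once it has begun, differed least of the members that passed. CD4 T cells held 11.48, 11.30 and 11.50 in control and 11.40, 11.38 and 11.44 in linoleic acid culture. CD8 T cells held 11.01, 11.11 and 11.23 in control and 11.14, 11.08 and 11.21 in linoleic acid culture. Again no CD8 array reached a CD4 array. The difference was -0.29 ± 0.08, 1.22-fold lower (limma adjusted p = 0.0487).

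Gimap9 differed most in size, at -0.54 ± 0.13 or 1.45-fold lower in CD8 T cells (limma adjusted p = 0.0317), but its arrays overlapped. CD4 arrays read 7.74, 7.25 and 8.01 in control and 7.89, 7.81 and 7.83 in linoleic acid culture. CD8 arrays read 6.86, 7.47 and 7.13 in control and 7.21, 7.16 and 7.46 in linoleic acid culture. CD4 control array 2 fell among the CD8 arrays, and against CD8 control array 2 it stood lower by 0.23, the reverse of the other same-numbered pairs.

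**Figure D1:**
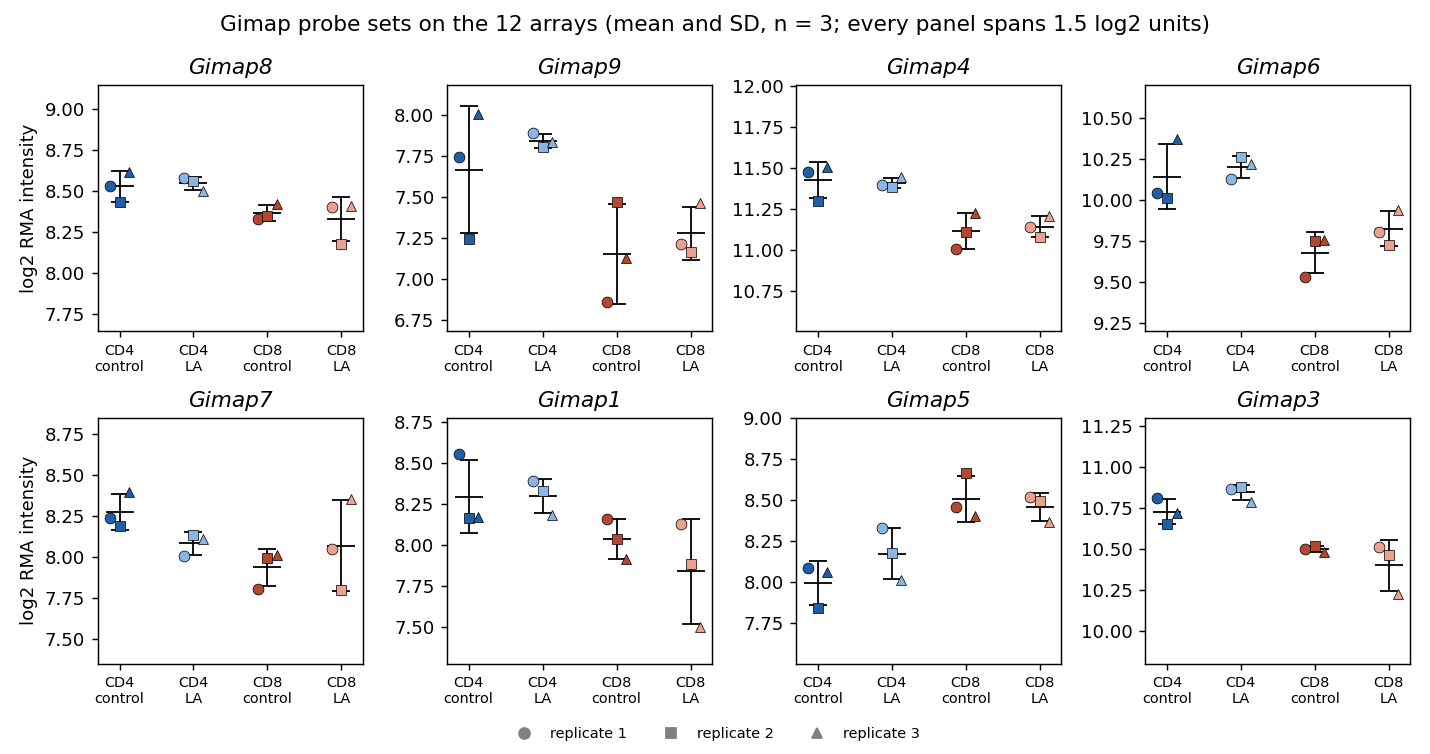
Log2 RMA intensity (vertical axis, 1.5 log2 units in each panel) of the 8 Gimap probe sets on the 12 arrays in 4 groups, LA standing for linoleic acid culture; points are arrays, the symbol gives the replicate number, and bars give the mean and SD of 3 arrays. Gimap5 lies between 8.36 and 8.66 in CD8 arrays and between 7.84 and 8.33 in CD4 arrays, while Gimap3, Gimap4 and Gimap6 lie lower in every CD8 array than in every CD4 array.

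Of the 3 members that did not pass, Gimap1, a Golgi protein that lymphocytes need to persist, ran from 8.162 to 8.55 in CD4 arrays. In CD8 arrays it ran from 7.50 to 8.158. Its difference was -0.36 ± 0.11 (limma adjusted p = 0.109). A dimmer Gimap1 probe set, not used here, averaged 5.08, under the 95th percentile of the receptor genes. Gimap8, the longest family member with several GTPase domains, ran from 8.43 to 8.62 in CD4 and from 8.17 to 8.42 in CD8 arrays, at -0.19 ± 0.08 (adjusted p = 0.253 in limma). Gimap7, an active GTPase, overlapped between CD4 (8.002 to 8.40) and CD8 arrays (7.80 to 8.35), at -0.18 ± 0.10 (adjusted p = 0.479 in limma, 95% interval -0.39 to 0.04). The arrays of the cell types did not overlap for 6 of 8 members, against 4.15% of genes, though Gimap1 and Gimap8 were apart by very little.

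Each member kept the sign of its difference over both cultures in the 23 alternatives that were run, but the count of members past the threshold moved. Leaving out any 1 of CD4 control arrays 1 and 3 or CD4 linoleic acid arrays 1, 2 and 3 left 2 or 3 members. So did leaving out any 1 of CD8 control arrays 1, 2 and 3 or CD8 linoleic acid array 2. In these fits 512 to 584 of all genes passed, in place of 674. Leaving out the 4 arrays numbered 1 left 0 members, with 507 genes passing. Gimap5 then had an adjusted p = 0.0513 and Gimap6 an adjusted p = 0.0785, in limma on 8 arrays. With only 1 array left out Gimap6 always passed, and Gimap5 passed except without CD8 control array 2 (limma adjusted p = 0.0545). The count was 3 with no filter on dim probe sets (591 genes passing) or with array medians set equal (573). It was 8 with arrays weighted by their quality, where 1473 genes passed in place of 674.

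B cells make GIMAP transcripts too, so their markers are given beside the members. The mean of the B cell list ran from 6.47 to 7.80 in CD4 control, 6.52 to 7.95 in CD4 linoleic acid, 6.01 to 7.44 in CD8 control and 6.05 to 7.51 in CD8 linoleic acid arrays, and Ms4a1 and Cd79a among its defining genes were above background. For 13 of 13 tested B cell markers the CD8 value was the lower one (median difference -0.43), while 0 passed in limma and 0 had an unadjusted p under 0.05. Once the replicate number was a block, 9 of 13 passed as lower in CD8 T cells over both cultures, and 5 (control) or 6 (linoleic acid) within a culture. Of all 14323 genes that block called 630 in control culture in place of 280, and 798 in linoleic acid culture in place of 291. Its share of all genes over both cultures is not given here. The part of B cell RNA in the family's differences was not tested. In the arrays numbered 1, where B cell markers were lowest, same-numbered CD8 and CD4 arrays differed in control culture by 0.37 for Gimap5, -0.51 for Gimap6, -0.31 for Gimap3, -0.47 for Gimap4 and -0.88 for Gimap9. In linoleic acid culture the arrays numbered 1 differed by 0.19, -0.33, -0.35, -0.26 and -0.68 for the same genes. The B cell markers themselves differed there as well, at 6.01 in CD8 against 6.47 in CD4 control arrays and 6.05 against 6.52 with linoleic acid.

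Within control culture 0 of 8 members passed in limma, where 1.95% of genes did, with 5 of 8 at an unadjusted p under 0.05 (9.37% of genes). Gimap5 came nearest, at 0.51 ± 0.13 and an adjusted p = 0.0571, followed by Gimap6 at -0.46 ± 0.13 (adjusted p = 0.101). With the replicate number as a block, 2 of 8 members passed in limma, among 630 genes in place of 280. These were Gimap5, higher in CD8 T cells (adjusted p = 0.0205 in limma), and Gimap6, lower (0.0281). The arrays of CD4 and CD8 T cells did not overlap for 7 of 8 members, against 16.1% of genes, and Gimap9 was the exception.

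Within linoleic acid culture 0 of 8 passed in limma as well (2.03% of genes), with 6 of 8 at an unadjusted p under 0.05 (11.8% of genes). Gimap3 stood at -0.45 ± 0.11 (adjusted p = 0.06), Gimap1 at -0.46 ± 0.16 (adjusted p = 0.241) and Gimap5 at 0.28 ± 0.13 (adjusted p = 0.389). With the replicate number as a block, Gimap3 (adjusted p = 0.0227) and Gimap1 (0.0297) were lower in CD8 T cells, 2 of 8 members against 5.57% of genes (3.79% lower). The arrays did not overlap for 7 of 8 members, against 15.3% of genes. Gimap7 was the exception here, at -0.01 ± 0.14, and its sign turned when the deposited values were quantile normalized again.

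**Figure D2:**
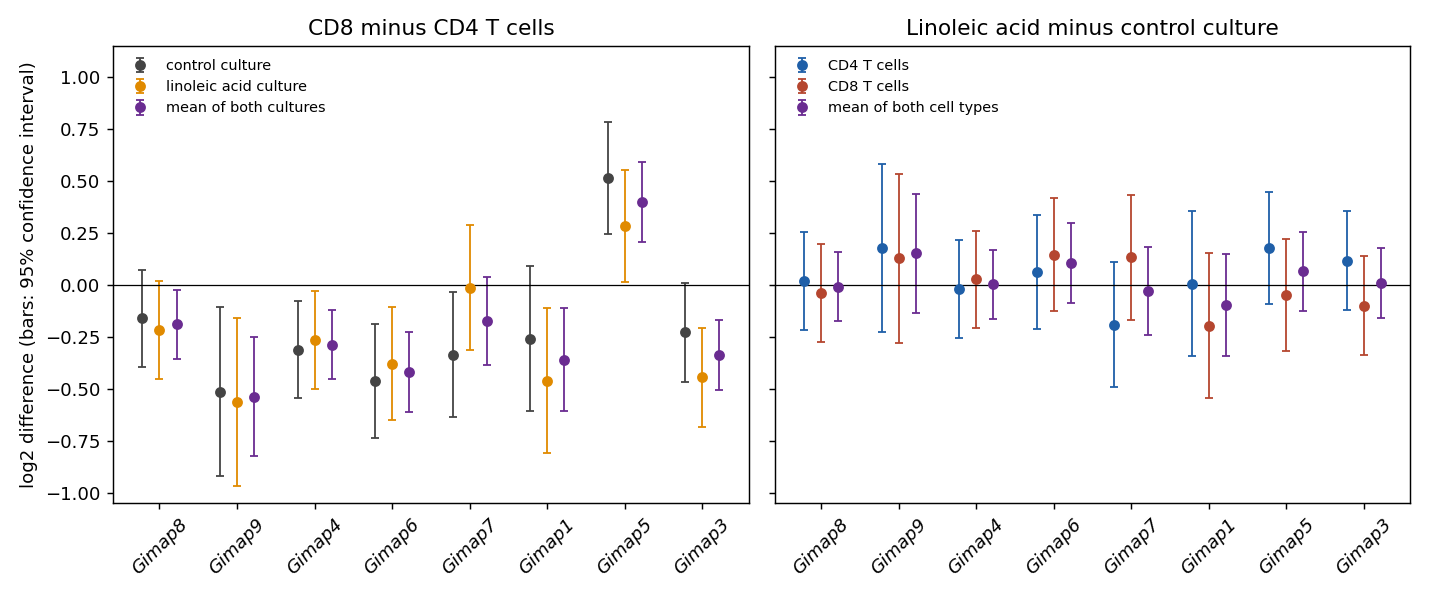
Log2 difference (vertical axis) of each member between CD8 and CD4 T cells (left) and between linoleic acid and control culture (right), with 95% confidence intervals from the fit in limma on 12 arrays. On the left Gimap5 lies above 0 and the other members below it in each culture; on the right each interval includes 0.

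Since Gimap5 went the other way from its neighbours, its value minus the mean of the other 7 members was taken on each array, a measure chosen after the values had been seen. Its absolute size depends on the probes and is not a ratio of transcripts. It was -1.26, -1.30 and -1.34 in CD4 control arrays and -0.995, -1.16 and -1.29 in those with linoleic acid, against -0.43, -0.37 and -0.59 in CD8 control and -0.52, -0.41 and -0.65 in CD8 linoleic acid arrays. The highest CD4 array and the lowest CD8 array were thus separated by more than the range of any group. This gap combines the opposite differences given above, from the same values, and is no separate test. A difference within an array is not moved by a shift of the whole array, and it shows an unequal change only.

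**Figure D3:**
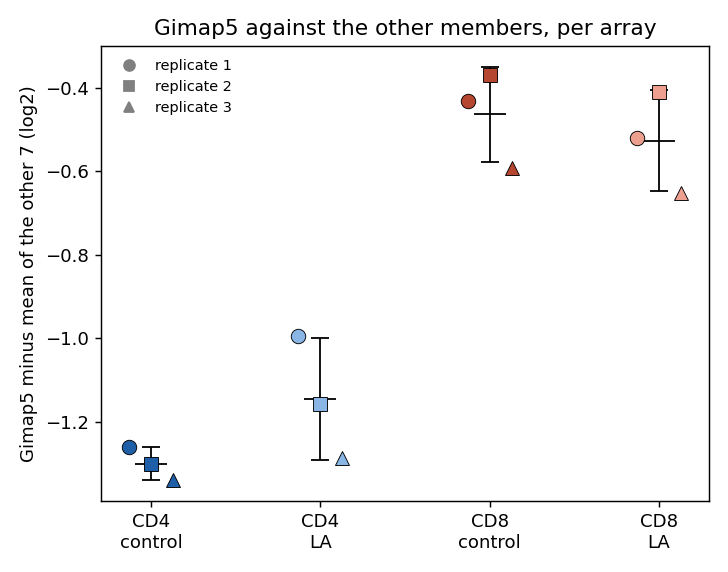
Log2 intensity of Gimap5 minus the mean of the other 7 members on each array (vertical axis) for the 4 groups; points are arrays with the replicate number as symbol, and bars give the mean and SD of 3 arrays. CD4 arrays lie from -1.34 to -0.995 and CD8 arrays from -0.65 to -0.37.

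Linoleic acid was then compared with control culture. In CD4 T cells 0 of 8 members passed in limma, as did 0% of genes. At an unadjusted p under 0.05 there were 0 members and 2.6% of genes. The values ran from -0.19 (Gimap7) to 0.18 (Gimap5), with a median of 0.04 beside -0.0047 over all genes tested. The 95% intervals of the 8 effects lay within -0.49 to 0.58, or 1.41-fold lower to 1.497-fold higher. Gimap7 was the 1 member whose treated arrays (8.002 to 8.13) all lay below the control arrays (8.18 to 8.40). The arrays of 7.44% of genes did not overlap, those of 4.52% with the treated arrays lower, and Gimap7 had a limma adjusted p = 1.

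In CD8 T cells 0 of 8 passed in limma too, as did 0% of genes. At an unadjusted p under 0.05 there were 0 members and 5.08% of genes. The values ran from -0.20 (Gimap1) to 0.15 (Gimap6), with intervals within -0.55 to 0.53, and the median of -0.01 stood beside -0.06 over all genes. Gimap1 was spread most widely in CD8 linoleic acid arrays, at 8.13, 7.89 and 7.50, against 7.92 to 8.16 in CD8 control. For 0 of 8 members did the treated and control CD8 arrays stand apart, against 9.01% of genes.

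Averaged over both cell types, the effects ran from -0.10 (Gimap1) to 0.15 (Gimap9), with 0 of 8 past the threshold in limma (0% of genes) and 0 at an unadjusted p under 0.05 (4.84% of genes). The intervals lay within -0.34 to 0.44, so changes of up to 1.27-fold down or 1.36-fold up were not excluded for single members by these arrays. With the replicate number as a block 0 of 8 passed, against 0.182% of genes.

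The series' own question is whether the response differs between the cell types. The CD4 effect minus the CD8 effect ran from -0.32 ± 0.20 for Gimap7 to 0.23 ± 0.18 for Gimap5, and 0 of 8 members passed in limma (0% of genes), 0 of them at an unadjusted p under 0.05 (2.35% of genes). The lowest unadjusted p, that of Gimap7, was 0.125 (limma adjusted p = 0.953). Same-numbered Gimap7 arrays moved by -0.23, -0.05 and -0.29 with linoleic acid in CD4 T cells and by 0.24, -0.19 and 0.34 in CD8 T cells. The intervals of these differences lay within -0.75 to 0.70. Misses of the threshold at this width do not show that the cell types responded alike.

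With group means taken off, the 8 members divided along the cluster into 2 sets, a split chosen after the values were seen. Gimap8, Gimap9, Gimap4, Gimap6 and Gimap7, the first 5 in chromosomal order, deviated together over the 12 arrays, with r of 0.566 to 0.804 in 10 of 10 pairs. Gimap1, Gimap5 and Gimap3, the last 3, also did, with r of 0.562 to 0.911 in 3 of 3 pairs. Across the sets r ran from -0.593 to 0.530 and was above 0 in 4 of 15 pairs. On this measure Gimap5 had r of 0.562 with Gimap1 and 0.634 with Gimap3. These r are descriptions: the arrays share groups, replicate numbers and normalization.

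The split moved with the replicate number. In the 4 arrays numbered 1 the first set lay below its group means and the last set above, and in the 4 numbered 3 it was the reverse, while the sets lay on opposite sides in 1 of the 4 numbered 2. Some of these deviations were near 0, such as -0.0009 for the first set in CD4 control array 1 and 0.0053 in CD4 linoleic acid array 3. With the means of each number also taken off, r across the sets was above 0 in 13 of 15 pairs, from -0.288 to 0.935, so the division did not keep its form. Gimap5 then had r of 0.935 with Gimap9, 0.781 with Gimap6 and 0.696 with Gimap4 of the first set, above its r with Gimap3 (0.451) and Gimap1 (0.277). B cell markers averaged 6.01 to 6.52 in arrays numbered 1, 7.28 to 7.91 in those numbered 2 and 7.44 to 7.95 in those numbered 3, and their part in the split was not tested.

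**Figure D4:**
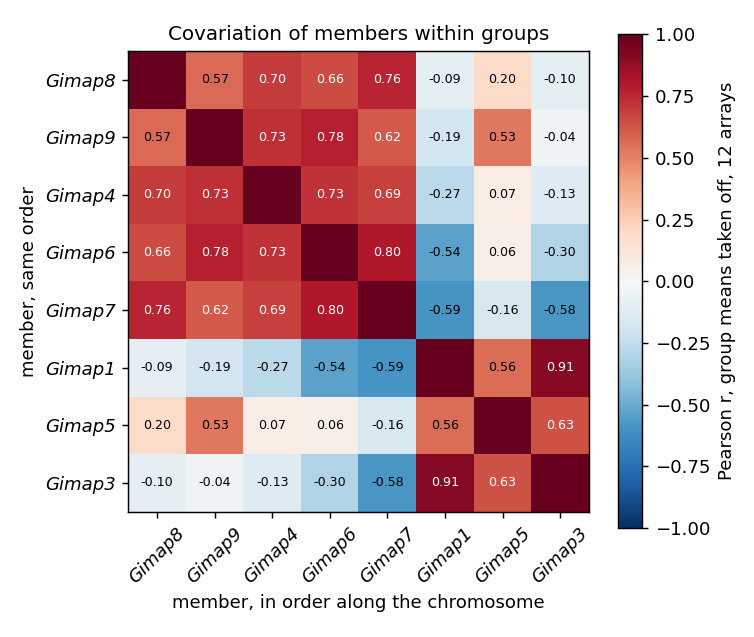
Pearson r between members over 12 arrays after each group's mean was taken off, with members in chromosomal order on both axes and color giving r from -1 to 1. The block of the first 5 members holds r of 0.566 to 0.804 and that of the last 3 holds 0.562 to 0.911.

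The protein-coding genes on either side of the cluster were read for comparison, 5 on each side, of which 8 of 10 were measured and 6 tested. Of these 6, 1 was lower in CD8 T cells over both cultures in limma: Tmem176a, which codes for a membrane protein of antigen-presenting and some T cells, at -0.46 (adjusted p = 0.0228). Its partner Tmem176b stood at -0.29 (adjusted p = 0.517). On the other side of the cluster Zfp775 stood at 0.22, Repin1 at -0.03 and Lrrc61 at 0.18, and Doxl1, beyond the Tmem176 genes, stood at -0.05, none of these 4 past the threshold. Myeloid markers, beside which Tmem176a can be set, had a median of -0.07 between CD8 and CD4 T cells, and 10 of 11 lay lower.

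**Figure D5:**
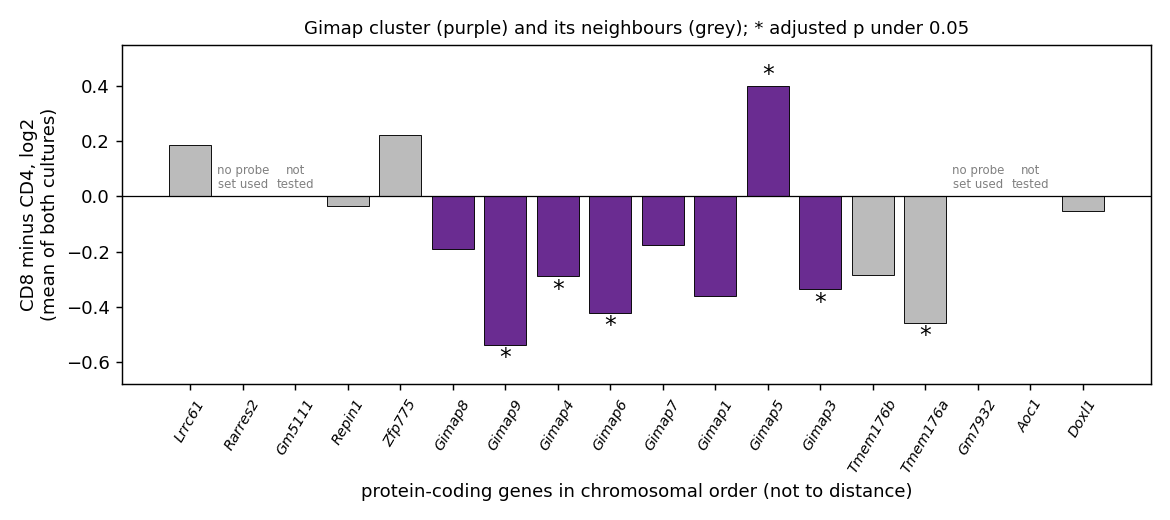
Log2 difference between CD8 and CD4 T cells over both cultures (vertical axis) for the 8 members and 5 protein-coding genes on each side, in chromosomal order and not to distance; purple bars are members, grey bars neighbours, and an asterisk marks an adjusted p under 0.05 in limma. Gimap5 stands at 0.40 between Gimap1 at -0.36 and Gimap3 at -0.34.

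Other genes of the pathways in which GIMAPs are placed were counted from 5 lists, over both cultures. Of 10 tested Bcl2 family genes Bcl2, which blocks mitochondrial death, was higher in CD8 T cells at 0.97 ± 0.14 (limma adjusted p = 0.000652), and the survival factor Mcl1 was lower at -0.39 ± 0.09 (adjusted p = 0.0183). Pmaip1, a death promoter, stood at 0.28 (adjusted p = 0.219), and the list's median was 0.02. Of 14 genes of Atg8 conjugation and autophagy 0 passed in limma and 1 had an unadjusted p under 0.05, with a median of -0.05. The autophagy receptor Sqstm1 stood at -0.26, and the conjugation enzymes Atg7 and Atg3 at 0.17 and -0.15. Gabarapl2, named for its known binding to Gimap6 after its value had been seen, stood at -0.16 (adjusted p = 0.643 in limma).

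Of 13 naive T cell survival and quiescence genes 1 was lower in CD8 T cells, the growth inhibitor Tob1 at -0.68 ± 0.17 (limma adjusted p = 0.0327). The related Btg1 stood at -0.31 (adjusted p = 0.0516) and the chromatin organizer Satb1 at -0.38 (0.0889), and 10 of 13 lay below 0, with a median of -0.22. With linoleic acid 12 of 13 of these genes lay above control in CD4 T cells (median 0.15), where 48.6% of all genes tested did. In CD8 T cells 2 of 13 did (median -0.13), where 36.9% of all genes did (median -0.06). None of them passed in limma for either effect or for the difference between the effects, with 0, 1 and 1 at an unadjusted p under 0.05.

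Other GTPases gave a further comparison. Of 8 tested interferon-inducible GTPases, which attack vacuoles of intracellular microbes, 2 were lower in CD8 T cells, Iigp1 at -0.82 ± 0.14 (limma adjusted p = 0.00275) and Irgm1 at -0.40 ± 0.09 (adjusted p = 0.0124). Igtp stood at -0.27 (adjusted p = 0.0748), and the 8 genes lay below 0 with a median of -0.29. Of 9 tested septins, cytoskeletal GTPases distantly related to GIMAPs, Septin11 was higher at 0.48 ± 0.11 (adjusted p = 0.0212 in limma), while Septin7 stood at -0.19 and Septin6 at 0.15, with a median of 0.07. With linoleic acid, 0 genes of these 5 lists passed in limma in CD4 T cells, in CD8 T cells or on average over both.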

How the data were processed

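RNA of sorted mouse T cells was measured on Affymetrix MoGene 2.0 ST arrays, 1 per sample. The deposited series table holds log2 intensities of 41345 probe sets from RMA, per the submitters' processing notes, and no scanner files were used here. Samples were grouped by their labels. The table pairs 23521 probe sets with 1 symbol, 1814 with several and 16010 with none. Each of 22180 genes was read from its probe set with the highest mean, and 14323 above the 40th percentile (log2 4.28) were tested. The 4 groups were fitted together in limma 3.58.1 (R 4.3.3; lmFit, eBayes), with Benjamini-Hochberg adjustment over 14323 genes and a threshold of 0.05. In data simulated for the cell type comparison over both cultures, this fit recovered 57% of genes changed by 0.5 log2 units and 97% changed by 1.

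After group means were taken off, same-numbered arrays correlated at 0.194 to 0.608 between CD4 groups and 0.195 to 0.428 between CD8 groups. Between linoleic acid groups the range was 0.256 to 0.578. Between control groups r was 0.538, -0.013 and 0.421 for numbers 1, 2 and 3. The labels state no pairing by number. The reported fits used group means only, with the number tried as a block. The other alternatives changed the filter, the normalization, the probe set, the variance model and the array weights, or left out each array in turn. Genes named from the pathway lists are the 3 with the lowest p over both cultures. The members, lists and tests were chosen with earlier results of these data known.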

Additional observations from a re-analysis of the deposited data

How the results depend on the processing

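The members past the threshold between CD8 and CD4 T cells, averaged over both cultures (5 in the reported fit), numbered 3 without a filter. They numbered 3 with array medians set equal, 8 with array weights and 2 to 5 with each array left out in turn. In an alternative added after seeing the data, leaving out the 4 arrays numbered 1 gave 0 members, with 507 genes called. Limma adjusted p over the alternatives ran from 0.00135 to 0.0545 for Gimap5, 0.000651 to 0.0785 for Gimap6, 0.00352 to 0.13 for Gimap3, 0.00607 to 0.307 for Gimap4 and 0.00675 to 0.268 for Gimap9. In control culture the count (0 reported, 0 to 0 with arrays left out) was 2 with the replicate block, 1 above the 60th percentile, 2 after a further quantile normalization, 2 with a trended, robust variance and 1 with array weights. In linoleic acid culture (0 reported, 0 to 0 with arrays left out) it was 2 with the replicate block, 1 above the 60th percentile, 1 after quantile normalization, 1 with the trended, robust variance and 7 with array weights. The array weights did not reach their convergence tolerance, and they raised the genes called over both cultures from 674 to 1473. With these weights the genes called rose from 280 to 411 in control culture and from 291 to 2299 in linoleic acid culture. The filter, quantile normalization and variance alternatives called 277, 322 and 303 genes in control culture and 308, 327 and 319 in linoleic acid culture. The replicate block gave 6 members over both cultures. In control culture it called Gimap5 (limma adjusted p = 0.0205) and Gimap6 (0.0281), among 630 genes in place of 280. In linoleic acid culture it called 798 genes in place of 291. The share of all genes that it called over both cultures is not given here. With that block over both cultures 5 naive T cell genes, 4 interferon-inducible GTPases and 9 B cell markers passed. It changed no call of a member for linoleic acid, where 0 of 8 passed in each alternative.

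Signs turned only for values that did not pass. For linoleic acid in CD4 T cells Gimap1 was -0.14 with probe sets averaged, -0.29 with the dimmest probe set and -0.0048 with medians equal, and Gimap4 was 0.010 without the arrays numbered 1. In CD8 T cells Gimap4 was -0.028 with medians equal, -0.033 with array weights and -0.026 without the arrays numbered 1. There Gimap5 was 0.030 and Gimap8 0.041 after quantile normalization, and Gimap7 was -0.11 and Gimap9 -0.060 with array weights. Averaged over the cell types Gimap3 was -0.024 with medians equal and -0.0055 without the arrays numbered 1, and Gimap4 was -0.029, -0.015, -0.031 and -0.0076 under medians equal, quantile normalization, array weights and without those arrays. Gimap7 was 0.015 and Gimap8 0.029 after quantile normalization. For the CD4 minus CD8 effect Gimap4 was 0.0035 with array weights and 0.036 without the arrays numbered 1, Gimap6 was 0.039 with array weights, and Gimap8 was -0.023 and Gimap9 -0.037 after quantile normalization. Between the cell types in linoleic acid culture Gimap7 was 0.055 after quantile normalization. The cause was not tested for any of these.

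With each array left out in turn, linoleic acid effects that turned ran in CD4 T cells from -0.060 to 0.14 (Gimap1), -0.083 to 0.019 (Gimap4), -0.0038 to 0.18 (Gimap6), -0.027 to 0.065 (Gimap8) and -0.033 to 0.35 (Gimap9). In CD8 T cells they ran from -0.028 to 0.082 (Gimap4), -0.10 to 0.029 (Gimap5), -0.012 to 0.27 (Gimap7), -0.077 to 0.039 (Gimap8) and -0.019 to 0.29 (Gimap9). On average they ran from -0.020 to 0.053 (Gimap3), -0.028 to 0.032 (Gimap4), -0.10 to 0.037 (Gimap7) and -0.033 to 0.029 (Gimap8). The CD4 minus CD8 effects ran from -0.11 to 0.0083 (Gimap4), -0.15 to 0.031 (Gimap6), -0.019 to 0.10 (Gimap8) and -0.16 to 0.22 (Gimap9), and Gimap7 between cell types in linoleic acid culture from -0.16 to 0.12. No background correction or slide block was run, as only the processed table was used.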

Other observations

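The genes whose profile over the 12 arrays was most like the family's mean profile were Tax1bp1, an autophagy receptor (r = 0.976), Tpp2, a peptidase (0.963), Tbk1, a kinase of innate signalling and autophagy (0.955), Exoc6, of the exocyst (0.954), and Nxf1, an mRNA exporter (0.950). With group means taken off they were Mier3 (r = 0.974), Rabep1 (0.966), Tax1bp1 (0.957), Usp1 (0.957) and Copa (0.953). They were picked for high r among 14323 genes, so the size of r carries no test. Gimap5 itself had r of -0.548 to the profile over the 12 arrays, the others 0.576 to 0.947. With group means taken off, r was 0.66 for Gimap5, 0.171 for Gimap1, 0.295 for Gimap3 and 0.526 to 0.885 for the others. Each member is part of the profile it was set against, which raises these r.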
